A study of Mus musculus with 24 samples.

Results

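Cisplatin-injured kidneys were compared with control kidneys gene by gene, through the N6-methyladenosine (m6A) peaks listed for each kidney by MeRIP-seq. The comparison took in 4 control kidneys and 4 kidneys of the injury group (IG), 8 of the 12 kidneys with a peak list and of the 24 samples of the series, which also holds 12 input samples that were not analysed here. All mice were male C57BL/6, aged 8 weeks, and control and IG mice alike had received saline intraperitoneally every day for 14 days. IG mice were then given cisplatin at 20 mg/kg intravenously, control mice its vehicle, and kidneys were collected 72 h later. The kidneys of the treatment group (TG), from mice given berberine at 20 mg/kg per day for those 14 days and then cisplatin, entered no test and are only set beside the called genes. RNA came from kidney tissue, 1 list per mouse, so the peaks come from a mixture of cells, which can include tubule, vessel, stroma and immune cells.

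m6A is the commonest internal mark of messenger RNA. It is written by a complex around METTL3 and METTL14, removed by FTO and ALKBH5, and read by proteins of the YTH family, through which it bears on splicing, export, translation and decay of the transcript. In the kidney, cisplatin is taken up by tubule cells, chiefly those of the proximal tubule, where it damages DNA and sets off stress signaling, cell death and repair. In MeRIP-seq an antibody pulls down m6A-bearing fragments of mRNA, and a peak is a stretch where these fragments pile up over the input. A weakly expressed transcript may give too few fragments for a peak, so more or less of the RNA, more or fewer cells of a type and more or less methylation cannot be told apart in these lists.

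The 8 lists held 65495 peaks, 8531 to 9579 in controls and 6745 to 8357 in IG, and 98.5% to 99.0% of the peaks of a list overlapped an exon of a protein-coding gene on the listed strand. Every peak has a score that grows with its significance (the p-value of the peak caller on a negative log10 scale, multiplied by 10). Read numbers are not part of the lists, and the sequencing depth is therefore unknown. Between 62.8% and 66.3% of the peaks of a list began and ended exactly at the ends of 1 annotated exon, so a peak places methylation in an exon and not at a base. The median peak was 328 to 340 bp wide in controls and 373 to 419.5 bp in IG. The commonest score was 3100, held by 66 to 90 peaks in controls and 99 to 116 in IG, and only 4 to 13 peaks of a list scored higher, so the order among the strongest peaks was largely lost to ties. Of 21924 protein-coding genes, 7402 had a peak in any of the 8 lists and 2273 in every list.

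Fewer genes carried a listed peak after cisplatin. The control lists named 4808, 4702, 4970 and 5065 genes, and the IG lists 4261, 4343, 4612 and 4026. The groups did not overlap, with 4886 ± 162 genes in controls and 4311 ± 242 in IG (SD, n = 4 each) and differed by -575.75 genes (p = 0.0286 in an exact permutation test on both sides, which 4 kidneys against 4 cannot go below). When every list was shortened to its 6745 highest-scoring peaks, the length of the shortest list, the difference was 15.75 (exact permutation test, p = 0.686). The direction was thus not kept at equal list length, and the main counts over all genes are therefore given with equal lists as well. The names of the listed peaks carry a number, the highest being 20664 to 22326 in controls and 22165 to 28164 in IG. The shorter IG lists thus did not go with lower peak numbers, and the step that shortened them was not tested.

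**Figure D1:**
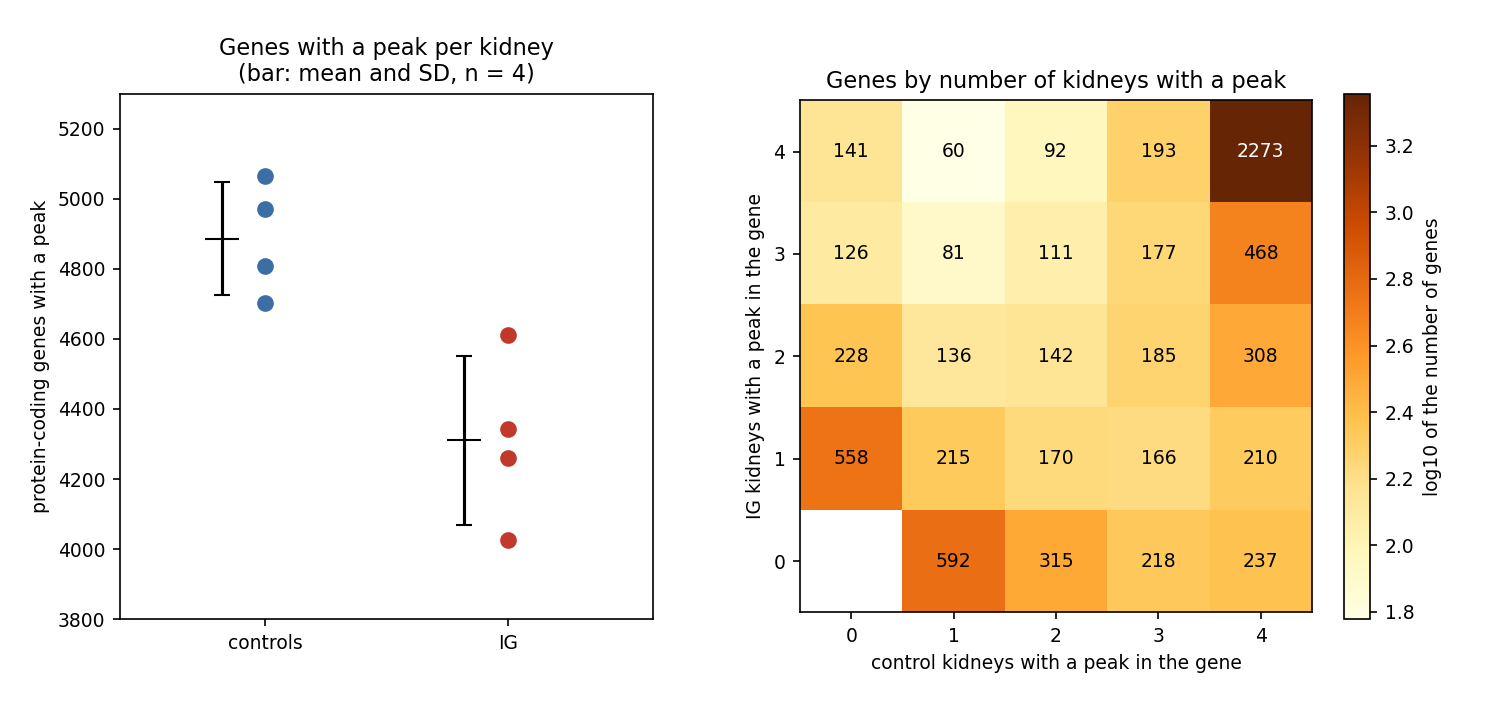
Left, protein-coding genes with a peak in each kidney (points; the y axis does not start at 0) with the mean and SD of 4 kidneys per group. Right, numbers of genes by how many control kidneys (x axis) and IG kidneys (y axis) had a peak in them, with color on a log10 scale; the corners show 237 genes with a peak in 4 control and 0 IG kidneys, 141 with the reverse and 2273 with a peak in all 8.

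A peak was listed in all 4 IG kidneys and in no control kidney for 141 genes (1.9% of the 7402), which are called gained here. The reverse held for 237 genes (3.2%), called lost. This is the only outcome of 4 kidneys against 4 with p under 0.05 in the two-sided Fisher exact test (p = 0.0286). After Benjamini-Hochberg adjustment 0 genes passed 0.05, the lowest adjusted p in Fisher's exact test being 0.559, so the calls below are single-gene calls without a correction. With equal list lengths 162 genes were gained and 143 lost, 53.1% gained in place of 37.3%, and 114 of the 141 gained and 122 of the 237 lost genes were called again. When only scores at or above the median were kept, 28 of the 141 and 46 of the 237 were called again, so most calls were lost. Genes with a peak in a single kidney were more numerous than either class, 592 with 1 control kidney and 558 with 1 IG kidney alone.

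Among the genes gained in IG, the strongest peaks lay in Mettl26, Serpina3n, Atp6v1b1, Ivl and Atf3. The strength of a gene is given as the percentile of its best peak among all peaks of the same list, with 100 the highest, and these values chose the genes named first. Serpina3n, a secreted serine protease inhibitor of the acute phase response, had its best peak at percentiles 96.8, 95.1, 86.8 and 93.6 of the IG lists. Atf3, a transcription factor induced by many kinds of cell stress, stood at 90.5, 91.7, 82.9 and 92.7. Atp6v1b1, the B1 subunit of the proton pump of intercalated cells, stood at 86.7, 93.6, 97.1 and 86.9. All of these were far up every IG list and in no control list, and all 3 genes had a peak in 4 TG kidneys too.

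Mettl26 had the highest mean, 98.1 ± 0.873 (SD, n = 4), followed after Serpina3n and Atp6v1b1 by the involucrin gene Ivl, which encodes an envelope protein of keratinized epithelium, with 91.0 ± 3.32. Further genes were Ahnak2 with 86.4 ± 3.88 and Zfp365 with 84.3 ± 9.97. Mettl17, which acts in mitochondrial protein synthesis, had 83.2 ± 6.07. Prg4, which encodes lubricin, had 80.1 ± 16.6, with IG kidney 3 at 56.5 against 80.5 to 92.0 in the others. The genes of this paragraph had a peak in 4 TG kidneys.

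The sequence around GGACT, a common form of the m6A consensus, is shown for 4 of these 9 genes, because these letters are the base context in which m6A is most often found. The peaks of Mettl26, Serpina3n, Atp6v1b1, Ivl and Prg4 held no GGACT on the gene's strand. Each line gives 29 bases of the gene's strand of GRCm38, with GGACT in capitals, at the occurrence nearest to the midpoint of the highest-scoring IG peak.
Atf3: tcaaagggtgtaGGACTccatactcagtg
Ahnak2: gaacacacaacaGGACTgagatgggaaga
Zfp365: gtaccattggcaGGACTcgctggagaatg
Mettl17: acagacgttgatGGACTttgggtctggca
They lie at chr1:191170632-191170660 (minus strand, in the peak of exon 4 of 4 of Atf3), chr12:112784907-112784935 (minus, exon 7 of 7 of Ahnak2), chr10:67909889-67909917 (minus, exon 2 of 5 of Zfp365) and chr14:51888002-51888030 (plus, exon 6 of 13 of Mettl17). The Atf3 peak spans 1384 bp, of which 195 bp are coding and 1189 bp belong to the 3′ UTR. The Mettl17 peak is 74 bp of coding sequence.

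GGACT was about as common on the opposite strand as on the gene's strand of all peaks. Searched as these 5 letters in windows of 300 bases at the midpoints of all peaks, it was found on the gene's strand in 25.8% to 26.8% of the windows of a list and on the opposite strand in 23.6% to 25.04%. Of the highest peaks of the 141 gained genes, 29.1% had it on the gene's strand and 19.1% on the opposite one, and of those of the 237 lost genes 37.97% and 24.9%. Among the highest peaks of every gene the gene's strand gave 29.3% in the control lists and 28.96% in the IG lists. The listed exons being long, the occurrence printed can lie far from the midpoint, up to 409.5 bases for the genes shown.

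Tubular injury markers were looked at as a list. Of 16 such genes with a peak in any kidney, 3 were gained (18.8%, against 1.9% over all genes) and 0 lost, and they were Sox9, Havcr1 and Anxa1. At equal list length 4 members were gained. Sox9, a transcription factor switched on in regenerating tubule cells, stood at percentiles 56.2, 73.7, 84.1 and 85.5 of the IG lists, in a peak over exon 3 of 3. Havcr1, which encodes the tubular injury molecule KIM-1, stood at 12.05, 66.2, 99.98 and 52.8, the widest spread among the named gained genes. Anxa1, a phospholipid-binding protein that dampens inflammation, stood at 26.2, 65.3, 31.3 and 47.4. Havcr1 and Anxa1 were thus listed in every IG kidney at scores from the low range upward, and a peak was listed in 3 TG kidneys for Havcr1, 4 for Sox9 and 1 for Anxa1. Cd44, a hyaluronan receptor of injured epithelium, had 2, 2, 3 and 2 peaks in IG and 0, 1, 0 and 0 in controls (two-sided exact permutation test, p = 0.0286, unadjusted). Krt20, a keratin of injured tubules, had no peak in any of the 8 kidneys. The other list members did not separate the groups, and the median over the list of IG minus control kidneys with a peak was -0.5, beside a median of 0 over all genes.

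In lists of inflammation, growth factors and the cell cycle 1 or 2 genes were gained, beside 1.9% over all genes. Rel, a subunit of NF-kB, was the only gained gene of 38 in TNF and NF-kB signaling (2.63%), and with equal list lengths it had a peak in 2 more IG than control kidneys and was no longer called. Inhba, the activin A subunit, was gained at percentiles from 43.2 to 56.2 and was the only one of 47 growth factor genes to be so (2.13%). Of 19 cell cycle genes with a peak, Kif23, a motor of cytokinesis, and Mcm3, a subunit of the replicative helicase, were gained (10.5%) with means of 32.4 ± 10.1 and 28.1 ± 8.82 (SD, n = 4), below the median of the lists. The cell cycle list also had 1 lost gene, the kinase Plk2, and 3 gained genes with equal list lengths. Flnc, an actin crosslinker, was gained at 90.2, 87.7, 73.2 and 24.4, and Acy3, an aminoacylase of the proximal tubule, at 37.3 to 56.6. The only gained gene of the AP-1, EGR and Kruppel-like list was Atf3.

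The strongest lost peaks lay in Prpf38b, Tmem252, Tgoln1, Pnrc1 and Rpl26, whose best peaks stood in the top 4% of every control list. Prpf38b, a splicing factor, was at 99.6, 98.9, 99.5 and 99.4, and Tmem252 at 98.9, 99.5, 99.5 and 98.4. Tgoln1, a protein of the trans-Golgi network, was at 97.2 to 99.5, Pnrc1, a coactivator of nuclear receptors, at 97.3 to 98.5, and Rpl26, a protein of the large ribosomal subunit, at 96.3 to 98.3. No IG list held a peak in any exon of these genes. Prpf38b had a peak in 3 TG kidneys, Pnrc1 and Rpl26 in 1 and Tmem252 and Tgoln1 in 0.

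After these came Nepn, a small leucine-rich proteoglycan, with 92.7 ± 2.05, the tissue kallikrein Klk1b3 with 91.5 ± 9.64 and Acot13, a thioesterase of fatty acyl-CoA, with 90.4 ± 6.05 (mean percentile ± SD, n = 4). Cd3eap, a subunit of RNA polymerase I, had 87.2 ± 1.497, and Hrg, a histidine-rich glycoprotein of plasma, 85.8 ± 4.74. All 10 of these genes, and the 9 strongest gained genes named above, were called again with equal list lengths. Shortening removes only the lowest-scoring peaks and these genes were chosen for high percentiles, so this repeat call was nearly fixed in advance. Reads of Klk1b3, Rpl26 and Tgoln1 can be shared with near-identical family members or processed copies, so which copy carried those peaks is uncertain. As for the gained genes, the context of GGACT is shown, for the 5 of the 10 whose highest control peak held it.
Tmem252: gaagcaaggcagGGACTaggatgctgctc
Tgoln1: aacactggcaggGGACTctgacttctctt
Pnrc1: ccccagacctttGGACTcgaaaggaaacg
Cd3eap: ggggagaaggagGGACTcgccaggctgag
Hrg: ggtccaggcaaaGGACTctttcctttcca
Their positions in GRCm38 are chr19:24677818-24677846 (plus strand, exon 2 of 2 of Tmem252), chr6:72615832-72615860 (minus, exon 2 of 4 of Tgoln1), chr4:33246001-33246029 (minus, exon 2 of 2 of Pnrc1), chr7:19356589-19356617 (minus, exon 3 of 3 of Cd3eap) and chr16:22961330-22961358 (plus, exon 7 of 7 of Hrg). Prpf38b, Rpl26, Nepn, Klk1b3 and Acot13 held none.

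**Figure D2:**
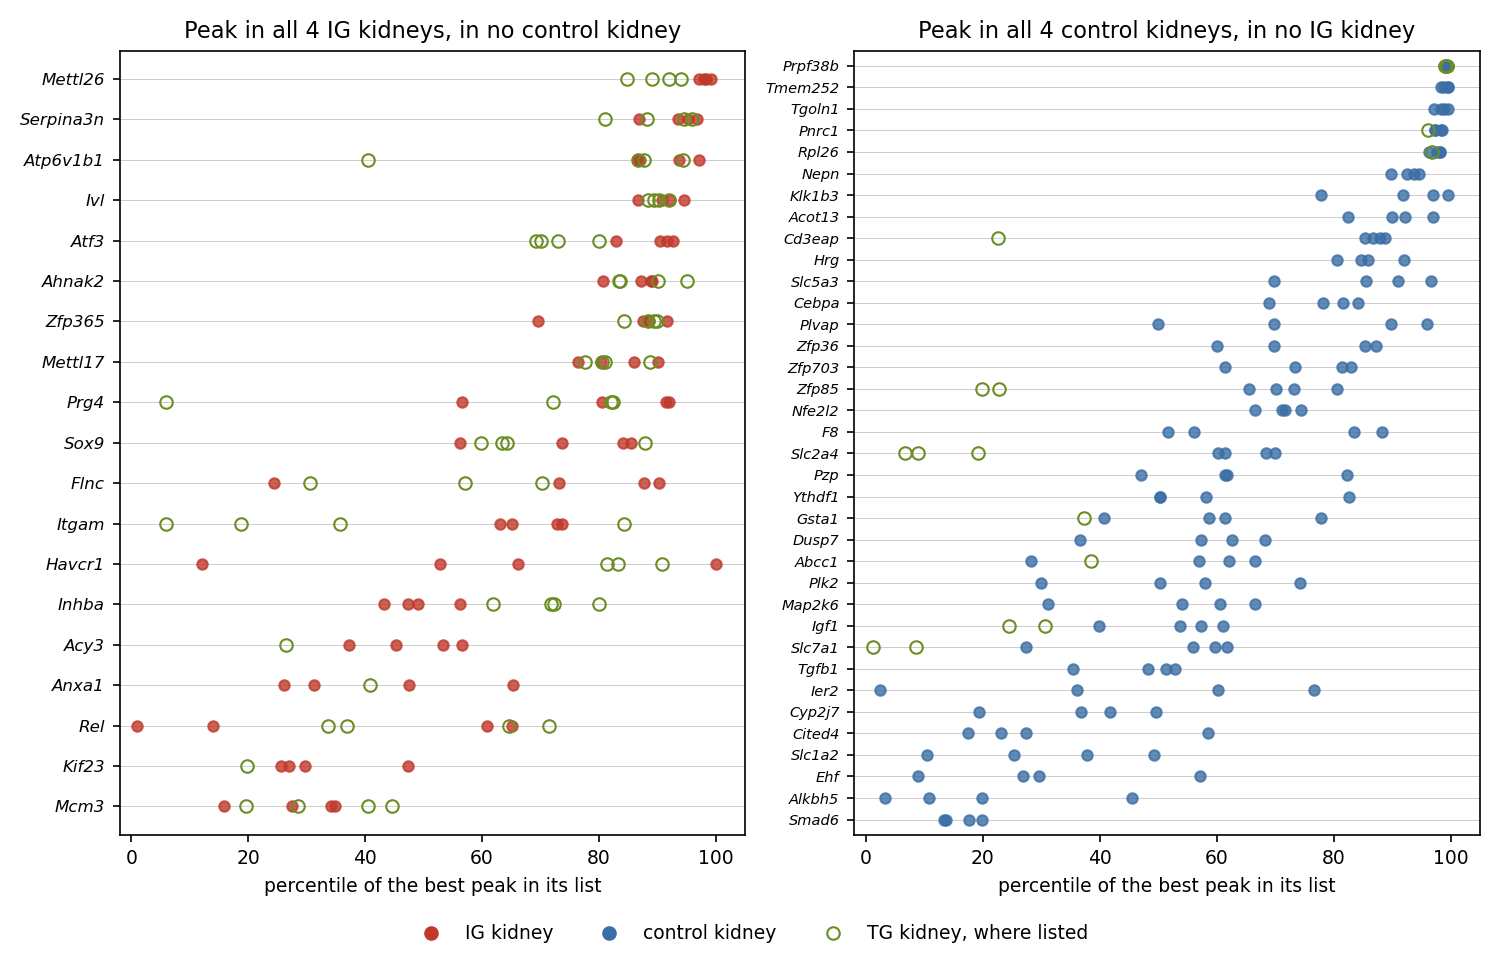
Percentile of the best peak of each named gene in its list (x axis, 100 the highest), for genes with a peak in 4 IG and 0 control kidneys (left) and in 4 control and 0 IG kidneys (right). Filled points are the 4 kidneys of the group with the peak and open circles the TG kidneys with one; Mettl26 and Prpf38b lie above 97 in every filled point, while Havcr1 runs from 12.05 to 99.98.

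Among NRF2 genes, which defend against oxidative stress, peaks were lost and none was gained. Of 15 such genes with a peak, 3 were lost (20%, against 3.2% over all genes) and 0 gained. Nfe2l2, which encodes NRF2 itself, had its best peak at 74.4, 71.2, 66.5 and 71.6 of the control lists, a peak of 267 bp that is all coding sequence. Gsta1, a glutathione transferase with close paralogs, was at 40.8 to 77.9 and Abcc1, an exporter of glutathione conjugates, at 28.3 to 66.6. Control lists each named 10 genes of this list and IG lists 3 to 6. The groups did not overlap, as they did not over all genes (4702 to 5065 and 4026 to 4612), for the MAP kinase list (27 to 30 and 21 to 23), TNF and NF-kB signaling (24 to 29 and 19 to 23) and the p53 targets (18 to 19 and 14 to 17). With equal list lengths Abcc1 was no longer called, with a difference of 3 kidneys.

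Of 38 AP-1, EGR and Kruppel-like genes with a peak, 6 were lost (15.8%, beside 3.2% over all genes) and 1 was gained. The lost genes were Cebpa, a transcription factor of metabolic differentiation, at 84.2, 69.0, 78.2 and 81.6 of the control lists, Zfp36, which drives decay of cytokine mRNAs, at 87.2, 85.4, 69.9 and 60.0, Ier2, an immediate early gene, at 2.43 to 76.7, and the Kruppel-like factors Klf1, Klf3 and Klf12. Control lists named 25 to 32 genes of the list and IG lists 15 to 22, beside the fall over all genes given above. With equal list lengths the number lost was 2, and Cebpa and Zfp36 were still called. Among the 9 members with a peak in all 8 kidneys, Klf5 and Klf7, named here after their values were seen, ranked higher in IG (22.2%, beside 5.9% over all genes; limma, adjusted p = 0.0457 and 0.0431), and these calls were lost in 6 and 7 of the 8 fits that left out 1 kidney, with limma adjusted p up to 0.103.

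In the growth factor, MAP kinase, p53 and nephron factor lists 3.70% to 6.38% of the genes were lost, beside 3.2% over all genes. Igf1, a growth factor of tubular repair, was lost at percentiles 39.9 to 61.1 of the control lists, Tgfb1, the central profibrotic cytokine, at 35.4 to 52.9, and Smad6, an inhibitor of signaling by bone morphogenetic proteins, at 13.4 to 19.8. These were 3 of 47 growth factor genes (6.38%), and with equal list lengths Smad6 differed by 0 kidneys. In the MAP kinase list 2 of 40 were lost (5.00%), the phosphatase Dusp7 with 56.2 ± 13.8 and the p38-activating kinase Map2k6 with 53.1 ± 15.5 (mean percentile ± SD, n = 4). Plk2, a p53-induced kinase, was the 1 lost gene of 27 p53 targets, with 53.2 ± 18.4. The clotting factor F8 and the protease inhibitor Pzp were lost among 27 acute phase, complement and coagulation genes. The nephron factors Cited4 and Ehf were lost among 40 genes of their list (5.00%), and neither was called with equal lists.

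Families were also taken by symbol, and are set beside 1.9% gained and 3.2% lost over all genes. Of 120 solute carriers with a peak, 1 was gained (0.833%) and 4 were lost (3.33%), among them Slc5a3, the myo-inositol transporter of the medulla, with 85.7 ± 11.6, and Slc2a4, the insulin-regulated glucose transporter, with 65.0 ± 4.88. The others were the amino acid transporters Slc7a1 and Slc1a2, of which Slc1a2 differed by 3 kidneys with equal lists. Of 293 zinc finger genes of the Zfp series, 3 were gained (1.02%) and 14 lost (4.78%), among them Zfp36, Zfp703 and Zfp85, and with equal lists 9 were lost. Control lists named 212 to 232 genes of this series and IG lists 168 to 180, without overlap, as over all genes (4702 to 5065 and 4026 to 4612). Of 15 cytochromes P450 only Cyp2j7 was lost (6.67%), and with equal lists it was not called.

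**Figure D3:**
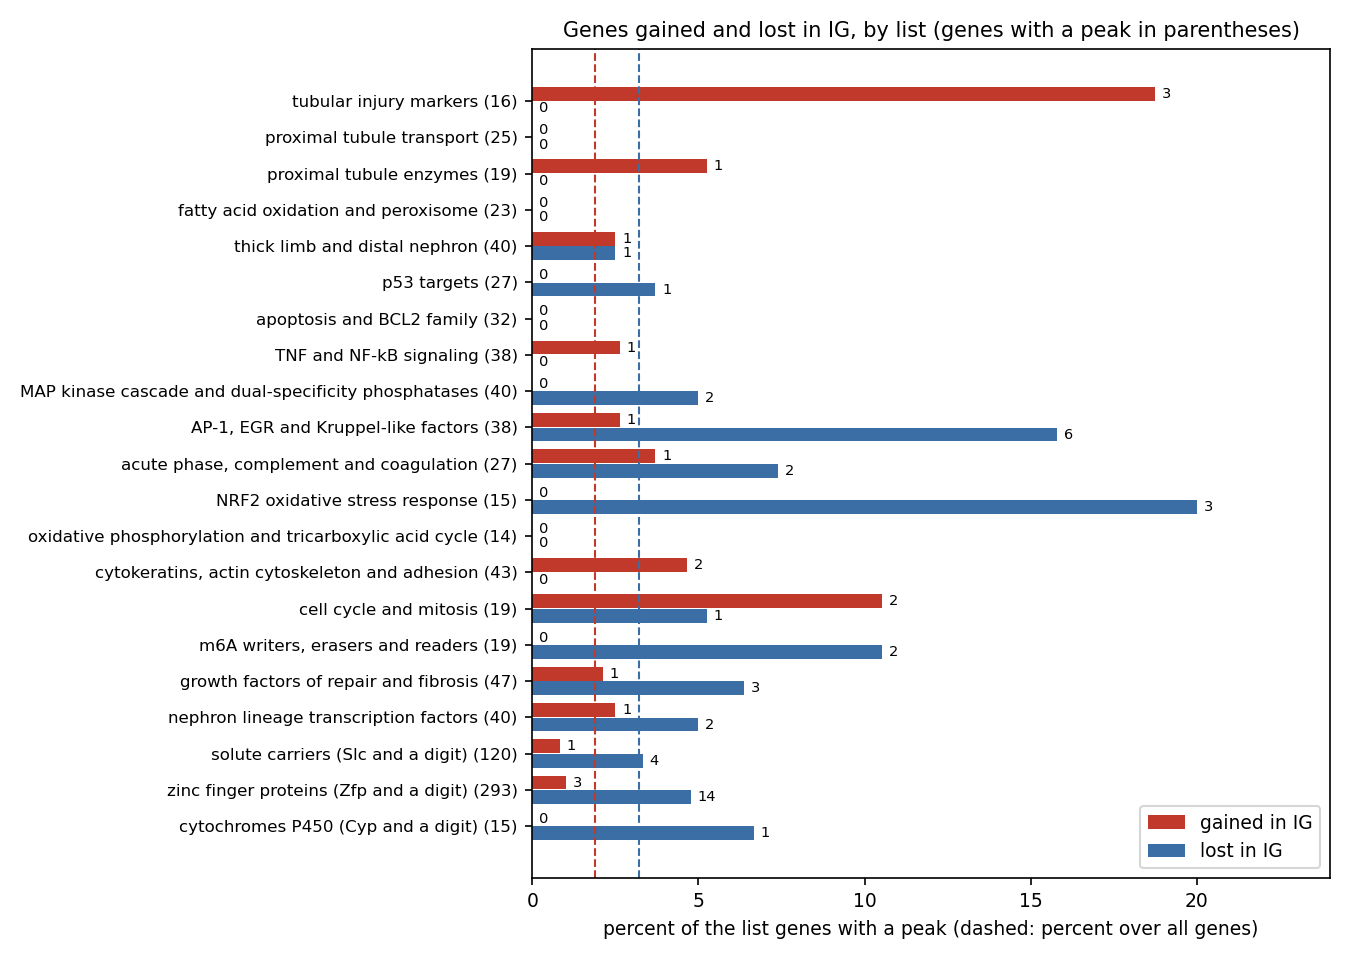
Percent of the genes with a peak that were gained (red) or lost (blue) in IG, for each of 18 function lists and 3 symbol families, with the number of genes with a peak in parentheses after each name and the number called at each bar. Dashed lines are the percents over all 7402 genes, 1.9 for gained and 3.2 for lost; the longest bars are 3 of 15 NRF2 genes lost, 3 of 16 injury markers gained and 6 of 38 AP-1, EGR and Kruppel-like genes lost.

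Peaks in genes of proximal tubule metabolism were then counted. Of 74 proximal tubule transport genes 25 had a peak, of 56 enzymes 19, of 69 fatty acid oxidation and peroxisome genes 23 and of 72 genes of oxidative phosphorylation and the tricarboxylic acid cycle 14, beside 7402 of 21924 over all genes. Across these 4 lists Acy3 was the only gain and there was no loss, and with 1.9% gained and 3.2% lost over all genes so few calls are near the background. Control lists named 2 to 6 of the proximal tubule enzymes (3.5 ± 1.73, SD, n = 4) and IG lists 6 to 10 (8.25 ± 2.06), a direction opposite to that over all genes. The median over the list of IG minus control kidneys with a peak was 1 for these enzymes and for the fatty acid oxidation genes, and 0 over all genes. Of 32 apoptosis genes with a peak 0 were gained and 0 lost, which at those shares does not set them apart. Few members of these lists had a peak in all 8 kidneys, from 1 to 4, so their ranks speak for single genes.

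The writers, erasers and readers of m6A were checked in the same lists. Of 26 genes 19 had a peak in any of these kidneys, and 0 were gained and 2 lost (10.5%), beside 1.9% gained and 3.2% lost over all genes. Ythdf1, a cytoplasmic reader linked to translation, stood at 50.4, 58.2, 50.3 and 82.6 of the control lists, in a peak of 1521 bp of coding sequence. Alkbh5, an eraser, stood at 19.9, 10.8, 3.36 and 45.5, low in 3 of the 4 control lists. With equal list lengths Ythdf1 was called again and Alkbh5 differed by 1 kidney. Neither had a peak in any TG kidney.

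Mettl14 had a peak in 4 control and 3 IG kidneys, and Igf2bp2 in 1 control and 0 IG kidneys. The other way went the eraser Fto, with 1 control and 2 IG kidneys, Zcchc4 and Hnrnpc, each with 0 and 2, and Mettl5, with 0 and 1. Mettl3, Mettl16, Ythdc2, Igf2bp1, Igf2bp3, Hnrnpa2b1 and Prrc2a had none in any of the 8 kidneys. Of 11 genes of this list with a peak in all 8 kidneys, only Ythdc1, the nuclear reader, ranked higher in IG (9.09%, beside 5.9% over all genes). Among the 2273 common genes its best peak stood at percentiles 86.4, 91.0, 94.1 and 92.5 in controls and 97.8, 97.7, 97.8 and 98.1 in IG, where every value is the tied score of 3100 (limma, adjusted p = 0.0293). That call was lost in 7 of the 8 fits that left out 1 kidney, with adjusted p up to 0.0748. The writer subunits Wtap, Virma, Zc3h13, Cbll1, Rbm15 and Rbm15b and the readers Ythdf2, Ythdf3, Fmr1 and Eif3a were not called, with adjusted p in limma from 0.0999 for Zc3h13 to 0.783 for Rbm15.

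Genes named in the study's own comparison were looked up whatever their result. Slc12a1, the sodium, potassium and chloride cotransporter of the thick ascending limb, had a peak in 4 IG kidneys, at percentiles 77.9, 89.4, 92.2 and 72.9, in 1 control kidney, at 77.2, and in 0 TG kidneys. Fga, the fibrinogen alpha chain, had a peak in 4 control kidneys, at 71.99, 90.7, 66.6 and 11.7, in 1 IG kidney, at 99.2, and in 3 TG kidneys. Both fell short of a call by 1 kidney. The study reported less methylation of Slc12a1 and more of Fga, Fgb and Fgg in injury, from a comparison of single sites. For Slc12a1 and Fga the number of kidneys with a peak went the opposite way here. A peak per kidney is another measure than the change at a site. Fgb, the beta chain, had a peak in 2 IG and 0 control kidneys, and Fgg, the gamma chain, in 2 IG kidneys, at 98.3 and 89.0, and 2 control kidneys, at 6.61 and 1.63.

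Among the 2273 genes with a peak in all 8 kidneys, the order of the peaks differed between the groups for many. Each gene was ranked within a list by its best score, so that the scale of the scores falls away, and is given as a percentile among these 2273 genes, which is another scale than the list percentile above. By limma on normal scores of these ranks, 134 genes ranked higher in IG (5.9%) and 108 lower (4.75%) at a Benjamini-Hochberg adjusted p under 0.05. The median difference over all genes was -0.066 percentile points. At equal list length, where fewer genes have a peak in every list, 111 ranked higher and 96 lower. Hoxc8, Bmp3, Edem3, Gspt2, Slc7a8, Sesn1 and Traf5, described below, could not be ranked there, and the other 32 called genes named by rule kept their calls. The values of the groups did not overlap for 130 of the 134 and 106 of the 108, beside 249 higher and 225 lower of all 2273 genes. The genes were called on these same ranks, so such separation, also in the single genes below, adds no support. When percentiles among all peaks of the list were used instead, 68 genes ranked higher and 121 lower, 36.0% higher in place of 55.4%. Leaving out 1 kidney gave 80 to 110 genes higher and 56 to 102 lower, the fewest higher without IG kidney 1 and the fewest lower without control kidney 2, and the number lower was 65, 61 and 63 without control kidneys 1, 3 and 4. The number higher was 86 without control kidney 4.

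The lowest adjusted p among the genes that ranked higher was that of Hoxc8. Hoxc8, a homeobox gene, stood at 3.83, 8.84, 3.32 and 6.38 in controls and 67.8, 64.2, 76.8 and 67.8 in IG, a difference of 63.6 percentile points (normal score 2.12 ± 0.18, SE; limma, adjusted p = 0.000458). Bmp3, a secreted member of the BMP family, stood at 2.90 to 8.40 in controls and 60.0 to 76.3 in IG (adjusted p = 0.000481). Edem3, which acts on misfolded glycoproteins of the endoplasmic reticulum, went from 9.13 ± 9.84 to 86.3 ± 1.92 (mean ± SD, n = 4; adjusted p = 0.00218), the largest shift of the named higher genes. Pik3c2a, a phosphoinositide 3-kinase of endocytosis, stood at 7.73 ± 5.22 and 71.7 ± 7.50, and Cd274, which encodes the checkpoint ligand PD-L1, at 8.81 ± 5.24 and 55.7 ± 5.84. In each of these genes all 4 IG kidneys lay above all 4 controls. Cd274 had fewer peaks in IG all the same, 2, 4, 2 and 2 in controls against 1 in every IG kidney (exact permutation test, p = 0.0286, unadjusted).

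The remaining named genes of this direction were Zc3h18, a zinc finger protein of RNA processing, with 39.6 ± 5.06 in controls and 85.7 ± 1.19 in IG, Abhd2 with 24.8 ± 14.1 and 83.7 ± 2.04, Zfp407 with 20.2 ± 7.17 and 68.1 ± 1.149, Spa17 with 62.5 ± 3.35 and 91.2 ± 1.39, and Gspt2, a translation termination factor, with 3.22 ± 1.78 and 28.4 ± 4.86. Their adjusted p in limma ran from 0.00156 to 0.00412. From the lists, Plat, the tissue plasminogen activator, rose from 54.2 ± 9.47 to 90.6 ± 2.32 (limma, adjusted p = 0.00444), Map4k4, a stress kinase upstream of JNK, from 79.9 ± 3.30 to 97.7 ± 1.69 (adjusted p = 0.00981) and Slc7a8, an amino acid exchanger of the proximal tubule, from 14.8 ± 11.2 to 58.9 ± 7.39 (adjusted p = 0.0211). Pdgfra, a receptor that marks fibroblasts, rose from 27.9 ± 13.2 to 78.1 ± 12.7 (adjusted p = 0.0132). Sesn1, a p53 target, and Traf5, an adaptor of TNF receptors, were called as well (adjusted p = 0.0441 and 0.0215), and each call was lost in several of the 8 fits that left out 1 kidney, 7 for Sesn1 and 4 for Traf5.

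Among the genes that ranked lower in IG, Klk1b4 and Plcb1 had the lowest adjusted p. Klk1b4, a kallikrein family gene that can share reads with its paralogs, stood at 90.8, 89.4, 92.3 and 86.7 in controls and 7.50, 3.39, 16.2 and 15.8 in IG (limma, adjusted p = 0.000458). Igfbp5, which binds insulin-like growth factors, stood at 98.7, 98.5, 98.4 and 98.1 in controls, all tied at the score of 3100, and at 4.36, 26.4, 45.5 and 1.76 in IG (adjusted p = 0.00218). Plcb1, a phospholipase of G protein signaling, went from 86.2 ± 2.39 to 17.0 ± 5.33 (adjusted p = 0.000458). Casr, the calcium-sensing receptor of the thick limb, went from 86.3 ± 3.47 to 19.0 ± 13.3 (adjusted p = 0.00218). In all 4 genes the groups did not overlap. Among all peaks of the IG lists the best peak of these genes lay near the middle, with mean percentiles from 33.8 for Klk1b4 to 45.9 for Casr, and whether it was the same peak as in controls was not tested.

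Sord, the sorbitol dehydrogenase of the polyol pathway, fell by 59.4 percentile points, from 82.4 ± 3.18 to 22.9 ± 4.98 (limma, adjusted p = 0.000661). Cpt2, the inner carnitine palmitoyltransferase of fatty acid oxidation, stood at 88.0, 84.8, 84.1 and 72.2 in controls and 22.4, 45.5, 15.6 and 10.8 in IG (adjusted p = 0.00474). Auh, an enzyme of leucine breakdown in mitochondria, fell by 49.3 points (adjusted p = 0.00293), while its peaks went from 1 in every control to 2 in every IG kidney. Sord was the only proximal tubule enzyme, and Cpt2 1 of 2 fatty acid oxidation genes, with a peak in all 8 kidneys, so their calls speak for single genes beside 4.75% lower over all genes. The IG minus control difference was -65.9 points for Elfn1, -56.3 for Tox3, -41.3 for Lsp1, an actin-binding protein of leukocytes, and -19.98 for Pdzrn3, whose control values were all tied at 3100 (adjusted p in limma from 0.00075 to 0.00318).

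From the other lists, Lamc1, the laminin gamma chain, went from 68.9 ± 8.01 to 24.5 ± 13.5 (limma, adjusted p = 0.0123), Tln2, which links integrins to actin, from 69.1 ± 3.73 to 25.8 ± 10.4 (adjusted p = 0.0094), and Spry1, a brake on receptor tyrosine kinase signaling, from 95.2 ± 0.916 to 81.6 ± 3.11 (adjusted p = 0.0132). Among 16 cytoskeleton and adhesion genes in all 8 lists 3 ranked lower (18.8%, beside 4.75% over all genes) and 1 higher, Cdh6. The third lower gene was Rdx, which links actin to the membrane, and its call was lost in each of the 8 fits that left out 1 kidney (limma, adjusted p from 0.0553 to 0.0704). Gadd45g, a DNA damage gene, Ripk1, a kinase of TNF signaling, and Cux1, a homeobox gene, were called with adjusted p of 0.0285, 0.0409 and 0.0238 in limma. These calls were lost in 5, 7 and 4 of the 8 fits that left out 1 kidney.

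**Figure D4:**
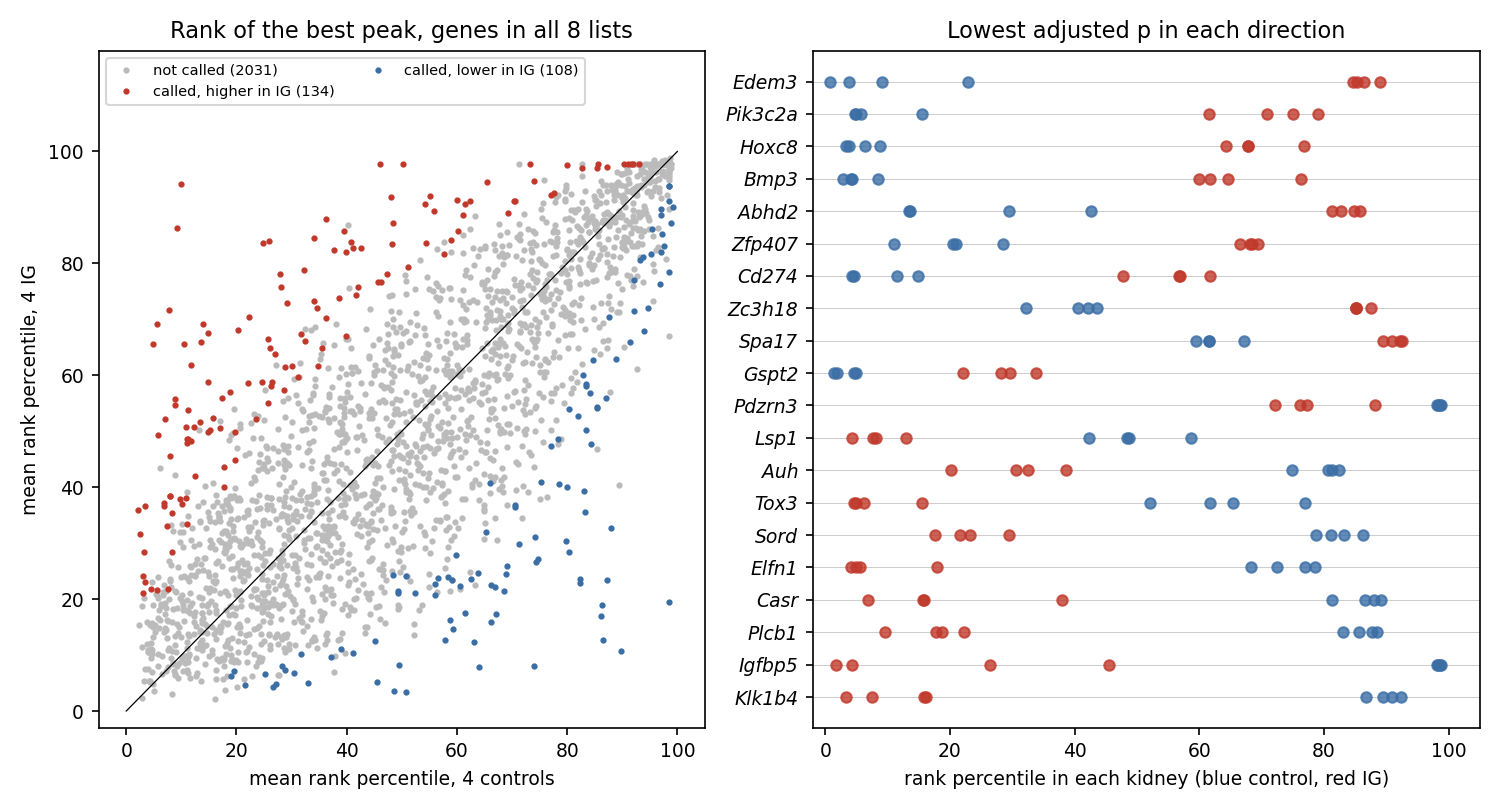
Left, mean rank percentile of the best peak in 4 IG kidneys (y axis) against 4 controls (x axis) for 2273 genes with a peak in all 8 lists, with 134 called higher in red, 108 called lower in blue and the line of equal rank. Right, rank percentile in each of the 8 kidneys for the 10 genes with the lowest adjusted p in each direction; the red and blue points of each of these 20 genes are apart, from Edem3 at the top to Klk1b4 at the bottom.

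The number of peaks per gene fell more often than it rose. Over all 7402 genes, 168 had more peaks in IG (2.27%) and 367 fewer (4.96%) at an unadjusted p under 0.05 in the two-sided exact permutation test, and all gained and lost genes are among them. None passed after adjustment, with 0.395 as the lowest adjusted p in the exact test. With equal list lengths 210 had more and 203 fewer, 50.8% more in place of 31.4%. With peaks in neighbouring exons counted as 1, 161 had more and 299 fewer. Among the 2273 genes with a peak in all 8 kidneys, 17 had more peaks (0.748%) and 83 fewer (3.65%).

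Falls were larger than rises in the genes named. Most listed peaks equal 1 exon, so a gene with many exons, such as Cep290 with 54, can hold many peaks. Cep290, a protein of the ciliary transition zone, had 11, 13, 12 and 16 peaks in controls and 7, 4, 3 and 3 in IG. Dst, a giant linker of the cytoskeleton, had 16, 17, 14 and 20 against 7, 11, 9 and 9. Erc2, a scaffold of secretory sites, had 7 to 10 in controls and 1 or 2 in IG, and Utrn, the homolog of dystrophin, 8 to 12 against 1 to 6. For Erc2 the rank of the best peak fell as well (limma, adjusted p = 0.00773), while Cep290, Dst and Utrn had no rank call. The unadjusted p of these 4 genes was 0.0286 in the exact permutation test.

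Genes with more peaks gained them in smaller steps. Mdn1, a giant ATPase of ribosome assembly, had 4, 3, 2 and 3 peaks in controls and 6, 7, 5 and 6 in IG. Cdh6, a cadherin of the developing and injured proximal tubule, had 1 peak in every control and 3 in every IG kidney. Akap12, a scaffold of protein kinase A, had 1, 1, 1 and 2 against 3 in every IG kidney, Chd7, a chromatin remodeler, 4 against 5 or 6, and Rev1, a polymerase that bypasses DNA damage, 1 or 2 against 3 or 4 (exact permutation test, p = 0.0286 for each, unadjusted). The best peak also ranked higher for Mdn1, Akap12, Cdh6 and Rev1 (limma, adjusted p = 0.00529, 0.00422, 0.0215 and 0.0356). The call was lost for Cdh6 without control kidney 1 or 4 and for Rev1 in 7 of the 8 fits that left out 1 kidney.

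**Figure D5:**
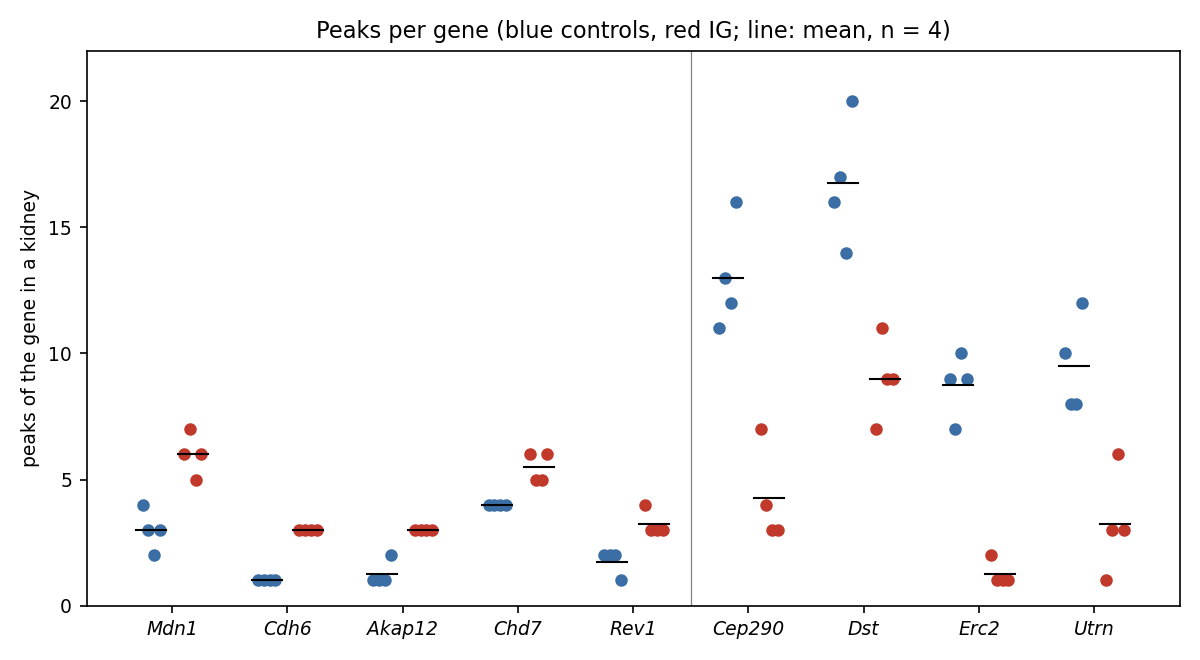
Number of peaks of a gene in each kidney (y axis) for the 5 genes with the largest rise (left of the line) and 4 of those with the largest fall (right) among genes with a peak in all 8 kidneys. Points are kidneys, blue for controls and red for IG, and short lines are means of 4; Cdh6 had 1 peak in all controls and 3 in all IG kidneys, and Cep290 11 to 16 against 3 to 7.

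Markers of cell types were counted in each list. Of 5 podocyte markers 4 had a peak in any kidney, of 8 endothelial markers 5 and of 10 fibroblast and smooth muscle markers 5, beside 7402 of 21924 over all genes. None of 8 proximal tubule markers and none of 8 neutrophil markers had a peak in any of the 8 kidneys, and only 1 of 10 lymphocyte and 1 of 5 erythrocyte markers did. For the endothelium 3 to 4 of 8 markers had a peak in a control list and 1 to 3 in an IG list, with Plvap, the protein of endothelial diaphragms, lost from percentiles 49.98, 95.9, 89.9 and 69.8. For macrophages and monocytes 1 to 2 of 13 had a peak in a control list and 2 to 4 in an IG list, with Itgam, the integrin alpha M of myeloid cells, gained at 73.6, 72.8, 65.1 and 63.1. For fibroblasts and smooth muscle 2 to 4 of 10 were listed in controls and 3 to 4 in IG, and Pdgfra ranked higher. Of 8 collecting duct markers 1 to 2 were listed in controls and 1 to 3 in IG. Atp6v1b1 was gained, while the median over its 3 markers with a peak of IG minus control kidneys was -1. Over all genes 1.9% were gained, 3.2% lost and 5.9% ranked higher, and with so few markers per cell type a single call speaks for that gene only. The part of changed cell numbers in the calls was not tested.

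The TG kidneys, which the calls did not use, mostly carried the gained peaks and lacked the lost ones. Of the 141 gained genes, 62 had a peak in all 4 TG kidneys (44.0%), 37 in 3, 19 in 2, 14 in 1 and 9 in none. Of the 237 lost genes, 156 had a peak in no TG kidney (65.8%), 40 in 1, 26 in 2, 9 in 3 and 6 in all 4. The TG lists were shorter than the control lists, with 5901 to 6753 peaks. They named 3776 ± 224 genes, beside 4311 ± 242 in IG and 4886 ± 162 in controls (SD, n = 4). The shares of all genes by number of TG kidneys with a peak are not given here. How far the gained and lost genes go beyond those shares therefore cannot be read.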

How the data were processed

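Peak lists of m6A MeRIP-seq from 4 control and 4 IG kidneys were compared, and 4 TG lists were used only for description. Per the submitters' processing notes and the study's methods, reads had been trimmed with Cutadapt 1.9.3, aligned with HISAT2 2.0.4 to mm10 (GRCm38), and peaks called with MACS in each kidney and kept where they overlapped mRNA exons. MACS version, threshold and control library are not given in the sources used here. The score deposited by the authors states the p-value of each peak on a negative log10 scale, multiplied by 10, and the lowest in any list is 13.02. The lists give no counts or depth, so no counting interval is possible and precision rests on 4 kidneys per group.

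Peaks were assigned to the protein-coding gene of GENCODE M21 with the most overlapped exonic bases on the same strand, at least 1 bp. Presence was tested with Fisher's exact test, peaks per gene with exact permutation over 70 arrangements, and normal scores of within-list ranks with limma 3.58.1 (R 4.3.3), each adjusted by Benjamini-Hochberg over all genes tested. Gene lists were described by counts beside the percent over all genes, with no set test. Exons of a peak refer to the transcript with the longest CDS. Tests were checked on simulated data. Other software was Python 3.11.15, numpy 2.4.6, scipy 1.17.1, pandas 2.3.3 and matplotlib 3.10.9.

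Named were the 10 gained and 10 lost genes with the highest mean percentile, the 10 with the lowest adjusted p for each direction of rank, the 5 with the largest change of peak number for each direction, up to 4 called members of each list, and Fga, Fgb, Fgg, Slc12a1, Havcr1, Krt20, Serpina3n and the m6A genes. Of the genes so chosen, 2 are not reported here. The comparison, its lists and its alternatives were chosen with earlier results of these data known. The alternatives were equal list lengths, scores at or above the median (72.3), leaving out peaks of more than 1 gene, ignoring strand and exons of protein-coding transcripts. Further alternatives were peaks in neighbouring exons counted as 1, other score summaries, a replicate block and leaving out each kidney.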

Additional observations from a re-analysis of the deposited data

Results flagged for a closer look

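For 170 groups of 4 kidneys of named genes, the highest or lowest list percentile was checked for its distance from the other kidneys, as a share of the whole range of the group. Such a check flags about 1 in 20 groups by chance, and 5 were flagged. In controls these were Bmp3, with 1 kidney at 37.99 against 25.87 to 26.17 in the others (a gap of 0.976 of the range), Ythdf2, at 97.74 against 96.69 to 96.77 (0.924), and Slc7a1, with 1 kidney at 27.38 against 55.96 to 61.75 (0.831). In IG they were Fmr1, at 87.16 against 74.46 to 75.86 (0.89), and Eif3a, at 100 against 99.1 to 99.24 (0.847). The range of Ythdf2 and of Eif3a is about 1 percentile point. Bmp3 ranked higher in IG in every fit that left out 1 kidney, with adjusted p in limma from 0.00127 to 0.00353.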

How the results depend on the processing

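Ignoring strand, leaving out peaks of more than 1 gene and using exons of protein-coding transcripts kept the direction and the call of the difference in genes per kidney, and left the 6 counts of called genes within 1.5 times their value. The difference in genes per kidney was 15.75 with equal list lengths (exact permutation test, p = 0.686), -498.75 with scores at or above the median, and -676.25 to -480.917 without 1 kidney, where p was 0.0571 in the exact test without any 1 control kidney. With scores at or above the median 63 genes were gained, 147 lost, 75 had more and 209 fewer peaks, and 82 ranked higher. With equal lists 143 were lost and 203 had fewer peaks. When a surplus of 3 kidneys sufficed, 327 genes were gained and 665 lost. Rank calls numbered 68 higher with percentiles among all peaks, and 249 higher and 225 lower by the unadjusted exact test. Without 1 kidney, 80 to 110 genes ranked higher and 56 to 102 lower, while the numbers gained, lost, with more and with fewer peaks stayed within 1.5 times those of all kidneys. Leaving out a kidney loosens the rule for gained and lost genes, so none of those calls could fall away. Replicate numbers did not pair the kidneys, with correlations of same-numbered kidneys from 0.00277 to 0.058; with the number as a replicate block the difference in genes stayed at -575.75 (p = 0.125 in an exact permutation test of signs, which 4 pairs cannot go below), and 74 genes ranked higher and 69 lower, the call of 6 of 39 named genes being lost. Of the uncalled m6A genes, the rank difference in normal scores ran from -0.272 to 0.0448 for Rbm15 and from -0.147 to 0.301 for Eif3a without 1 kidney, against -0.11 and 0.18 with all, and changed sign without IG kidney 4 in both. The cause of these changes was not tested. No read depth was known, so a missing peak sets no limit on methylation.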

Other observations

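Genes chosen after the results were seen gave 3 further patterns, which carry no test of their own. Of 7 genes of the Nop, Utp and Noc series with a peak in all 8 kidneys, which serve ribosome assembly in the nucleolus, 5 ranked higher in IG (71.4%, against 5.9% over all genes) and 0 lower. They were Nop14, with a mean rank percentile of 61.1 ± 3.34 in controls and 88.6 ± 3.53 in IG (SD, n = 4), Nop58 with 61.4 ± 9.32 and 90.7 ± 2.39, Noc3l with 11.8 ± 5.73 and 48.3 ± 13.3, Utp3 with 85.7 ± 7.05 and 97.8 ± 0.195, and Utp14b with 26.4 ± 6.56 and 58.8 ± 12.7. Nop2 was lost. The call of Utp14b was lost in 5 of the 8 fits that left out 1 kidney, and those of the other 4 in none.

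On chromosome Y 5 of the 15 genes with a peak were gained (33.3%, beside 1.9% over all genes) and 0 lost. They were Rbmy and the predicted genes Gm21677, Gm21693, Gm21704 and Gm4064, which belong to multicopy families that can share reads. Of 272 predicted models with a peak, 14 were gained (5.15%) and 3 lost (1.103%), beside 1.9% and 3.2% over all genes. All mice were male.

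Peaks shorter than 200 bp made up 39.2 ± 0.219% of the assigned peaks of a control kidney and 37.5 ± 1.08% of an IG kidney (SD, n = 4). The limit of 200 bp was set after the data had been seen.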
